A study of Mus musculus with 2 samples.

Results

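The genes described here are 10 genes that mark haematopoietic stem and progenitor cells, chosen by gene symbol: the surface proteins Kit and Cd34 and the transcription factors Meis1, Hoxa9, Mecom, Gata2, Erg, Myb, Mycn and Sox4. All 10 were found among the 20938 genes measured. RNA-seq was performed on Treg cells (CD4+ CD25+ regulatory T cells, which restrain immune responses) from the spleen of diabetic mice on day 7 after an islet transplant, with 1 library called Ctrl and 1 library called KD. The recipients were on the C57BL/6J background, had been made diabetic with streptozotocin, received islets from BALB/c donors under the kidney capsule and, for this experiment, were given no antibodies. The labels give the genotype of the Ctrl library as wild type and that of the KD library as a Foxp3 knockdown, whereas the methods describe the animals as Foxp3-Mettl14f/+ cKO mice, in which Foxp3-Cre, active in Treg cells, removes a single Mettl14 allele, and their littermate controls without that deletion. Mettl14 encodes a subunit of the complex that writes N6-methyladenosine onto mRNA. Neither source gives the age of the animals or says whether animals were pooled. The cells were obtained on magnetic columns, by depletion of cells other than CD4+ T cells followed by positive selection for CD25.

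Haematopoietic stem cells maintain all blood lineages and sit mainly in the bone marrow; in the mouse the spleen also holds stem and progenitor cells and remains a site of blood formation in the adult. Kit is the receptor for stem cell factor and is lost as most lineages mature, mast cells being an exception, and Cd34 is a sialomucin of progenitors and of the vascular lining. Meis1 and Hoxa9 are homeodomain proteins that bind DNA together, Mecom and Gata2 are zinc finger factors needed by stem cells, Erg is an ETS family factor, and Myb, Mycn and Sox4 act in the growth and differentiation of progenitors. Several are not exclusive to progenitors: Myb and Sox4 are also used by developing lymphocytes, Gata2 by mast cells and basophils, and Erg, Mecom and Cd34 by endothelium.

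Each deposited value was a level, that is, a whole number of reads multiplied by the worth of 1 read in its library, 0.967 for Ctrl and 1.14 for KD, so reads could be recovered. They summed to 20239325 in the Ctrl library and 18327535 in the KD library. Changes are given as log2((KD level + 1)/(Ctrl level + 1)), and the comparison took in the 16659 genes whose level averaged at least 1 over both libraries. With 1 library per genotype no difference has a replicate check, and no p-value is given. The 95% intervals in brackets come from the recovered reads by the exact Clopper-Pearson method. They cover counting error only, because with 1 library per genotype the variation between animals and preparations is not known. The reads carry no molecular identifiers and may be copies of the same molecule, so the intervals may be too narrow even for counting error. A level at least 1.5-fold lower or higher is called a fall or a rise. Of the targeted genes, Mettl14 had 948 and 652 reads in the Ctrl and KD libraries and changed by -0.31 (-0.45 to -0.16), which is less than 1.5-fold. Foxp3, the gene that defines Treg cells, had 1547 and 1361 reads and changed by 0.05 (-0.06 to 0.15). At the level of RNA these reads thus show no fall to go with the label that names a Foxp3 knockdown. Exons of other genes overlap part of the Foxp3 exons, and reads of RNA do not measure protein. By western blot the paper reported less METTL14 and less FOXP3 protein in Treg cells of this mouse line than in those of littermate controls. That blot was described with the making of the mice, with no transplant named, and so may differ in time from these libraries. The second library is called the library labelled KD throughout. Cd4 and Il2ra, which encode the proteins used for the isolation, were present in both libraries, with 8371 and 802 reads in Ctrl and 4658 and 1092 in the library labelled KD.

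The DNA before the start sites of 4 of these genes is shown so that the gene with the deepest fall among those with over 100 reads in the Ctrl library (Cd34), the most abundant genes (Kit and Myb) and the only gene whose deposited level was higher in the library labelled KD (Erg) can be seen beside their values. Each stretch is RefSeq sequence of GRCm38.p6, written 5′ to 3′ on the strand of the gene, within 250 bases before a start site and without any base of an annotated exon. Capitals mark matches, on either strand, to AGATAA or TGATAA (bound by GATA factors), CGGAAG (ETS factors), CAGCTG (E-box) or TGACAG (MEIS factors). The stretches are chr1:194938571-194938818 (plus strand) for Cd34, chr5:75574737-75574915 (plus) for Kit, chr10:21160985-21161234 (minus) for Myb and chr16:95459349-95459598 (minus) for the most downstream of the Erg start sites.
Cd34: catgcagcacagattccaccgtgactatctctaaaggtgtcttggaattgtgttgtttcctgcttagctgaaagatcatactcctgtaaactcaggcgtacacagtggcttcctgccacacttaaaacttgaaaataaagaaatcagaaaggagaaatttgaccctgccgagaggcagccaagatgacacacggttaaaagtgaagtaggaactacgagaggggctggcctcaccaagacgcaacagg
Kit: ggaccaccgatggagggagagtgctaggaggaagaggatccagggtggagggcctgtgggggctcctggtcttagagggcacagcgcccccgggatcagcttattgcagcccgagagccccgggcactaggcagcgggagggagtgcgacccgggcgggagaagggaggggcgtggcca
Myb: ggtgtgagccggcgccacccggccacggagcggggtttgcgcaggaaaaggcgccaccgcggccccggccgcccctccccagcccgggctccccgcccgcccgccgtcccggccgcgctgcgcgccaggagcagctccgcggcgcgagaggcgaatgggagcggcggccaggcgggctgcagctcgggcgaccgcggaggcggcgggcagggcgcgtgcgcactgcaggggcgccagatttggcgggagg
Erg: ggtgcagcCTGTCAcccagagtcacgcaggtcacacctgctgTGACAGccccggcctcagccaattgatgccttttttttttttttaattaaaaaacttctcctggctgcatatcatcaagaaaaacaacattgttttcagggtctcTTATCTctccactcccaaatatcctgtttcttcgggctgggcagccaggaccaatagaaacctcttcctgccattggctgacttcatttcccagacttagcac
The stretches of Cd34, Kit and Myb held no match to these letters. The Erg stretch held matches to the GATA letters AGATAA and, at 2 places, to TGACAG; the stretches before the other 2 Erg start sites held none. Over the full 250 bases before all 15 start sites listed for the 10 genes, AGATAA was found for Erg alone, TGATAA for Mecom alone, CAGCTG for Sox4 alone, CGGAAG for Mecom and Meis1, and TGACAG for Erg and Mecom. Among all 32851 such windows of the mouse table, 9.99% held AGATAA, 7.94% TGATAA, 13.6% CGGAAG, 13.0% CAGCTG and 15.9% TGACAG. Bases G and C made up 81.2% of the 250 bases before Myb, 70.8% before Kit and 46.4% before Cd34, against a median of 52.4% over all windows, so genes that fell had starts of widely different composition.

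Of the 10 genes, 8 had a level at least 1.5-fold lower in the library labelled KD and 0 a level at least 1.5-fold higher. Over all tested genes 24.2% were at least 1.5-fold lower and 17.2% at least 1.5-fold higher. The median change of the 10 genes was -0.83, against -0.04 for all tested genes. Mecom, the gene at 0 reads in the library labelled KD, stays the lowest of the 10 when set to 3 reads there. The median therefore could not change with that setting. All 10 genes passed the filter on low levels. The summed level of the 10 genes was 11239 in the Ctrl library and 6644 in the library labelled KD, a change of -0.76, of which Myb and Kit made up the largest part. Because these are bulk samples, fewer cells that express a gene and less RNA of it per cell cannot be told apart.

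**Figure D1:**
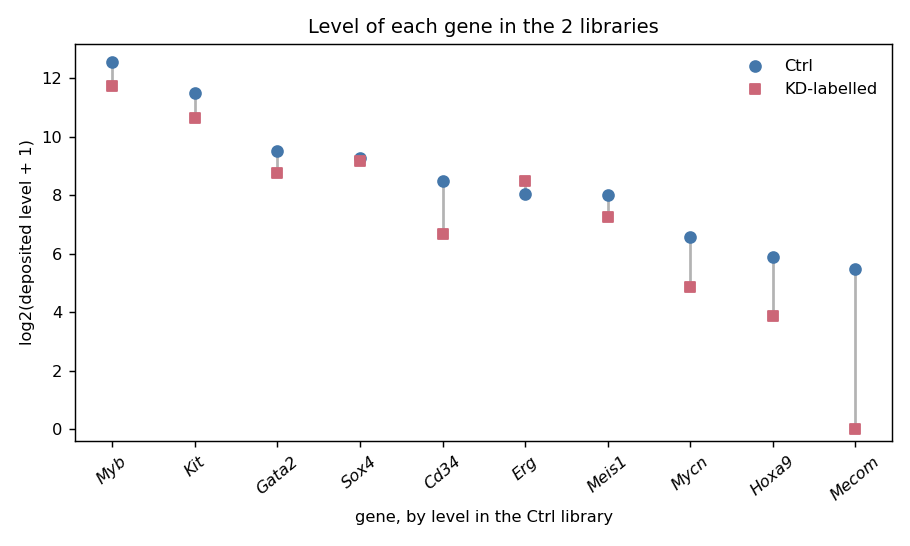
Deposited level of each of the 10 genes on a log2(level + 1) axis in the Ctrl library (circles) and the library labelled KD (squares), ordered by the level in Ctrl. The square lies below the circle for 9 genes and above it for Erg, and Mecom is at 0 in the library labelled KD.

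The genes of both surface proteins fell. Kit (chr5:75574916-75656722, plus strand), the stem cell factor receptor, had a level of 2863 in the Ctrl library and 1601 in the library labelled KD, from 2960 and 1408 reads. Its level was thus 1.79-fold lower, a change of -0.84 (-0.93 to -0.75). Cd34 (chr1:194938819-194961279, plus strand) had levels of 355 and 101, from 367 and 89 reads. Cd34 was 3.51-fold lower, a change of -1.80 (-2.16 to -1.47), and its counting interval did not overlap that of Kit. Kitl, the gene of the Kit ligand, had 0 reads in Ctrl and 9 in the library labelled KD, so the ligand was close to the limit of detection in these cells.

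Among the homeodomain partners and Mecom, all 3 genes fell, by very different amounts. Meis1 (chr11:18879817-19018985, minus strand) had levels of 258 and 154, from 267 and 135 reads, and changed by -0.75 (-1.06 to -0.45). Its interval includes changes smaller than 1.5-fold. Hoxa9 (chr6:52223100-52231089, minus strand) had levels of 58.0 and 13.6, from 60 and 12 reads, which is 4.25-fold lower and a change of -2.01 (-3.12 to -1.18). The interval of Hoxa9 is wide because few reads fell on it. Mecom (chr3:29951296-30548008, minus strand), which encodes the factor EVI1, had 45 reads in Ctrl and 0 in the library labelled KD. Set against a floor of 3 reads in the library labelled KD, the level of Mecom was at least 12.8-fold lower. The counting interval, which also takes in the error of the Ctrl reads, allows a somewhat smaller fall, with its upper end at -3.32. A zero in this range was not rare in these tables: of 928 genes with 30 to 59 reads in Ctrl, 108 had 0 reads in the library labelled KD, and of 832 genes with 30 to 59 reads in the library labelled KD, 33 had 0 reads in Ctrl. The intervals do not cover a gene set to 0 by the counting.

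The GATA and ETS factors moved apart. Gata2 (chr6:88193891-88207032, plus strand) had levels of 735 and 429.8, from 760 and 378 reads, and changed by -0.77 (-0.96 to -0.59). Erg (chr16:95359169-95586593, minus strand) had levels of 260.2 and 355, from 269 and 312 reads. On the deposited scale Erg was the only gene of the 10 with a higher level in the library labelled KD, 1.36-fold, with a change of 0.45 (0.21 to 0.69), which is below 1.5-fold. Its nearest ETS relative, Fli1, a factor of megakaryocytes, endothelium and lymphocytes, had 3222 and 4055 reads and a change of 0.56 (0.50 to 0.63). Gata1, which follows Gata2 in the erythroid and megakaryocyte lineages, fell by 1.14 on the log2 scale, whereas Gata3, a T cell factor, changed by -0.20.

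Of the factors of progenitor growth, Myb and Mycn fell and Sox4 did not. Myb (chr10:21124935-21160984, minus strand), needed for the renewal of progenitors and for early T and B cells, was the most abundant of the 10 genes. It had levels of 5958 and 3388, from 6159 and 2979 reads, and changed by -0.81 (-0.88 to -0.75). Mycn (chr12:12936093-12941914, minus strand), a paralog of Myc, had levels of 93.8 and 28.4, from 97 and 25 reads, and changed by -1.69 (-2.42 to -1.08). Sox4 (chr13:28948919-28953713, minus strand) had levels of 613 and 574, from 634 and 505 reads, and its change of -0.09 (-0.27 to 0.08) did not differ detectably from 0. The antisense gene Gm26735 covers 54.6% of the exon bases of Sox4, and whether the counting used strand is not given in the sources used here, so reads of both genes may be mixed in the Sox4 value. Smaller overlaps concern Meis1, with 9.77% of its exon bases on the same strand and 8.51% on the opposite strand, and Myb, with 6.26% on the opposite strand. The paralogs of Myb moved in both directions, with Mybl2, a cell cycle factor, at -0.71 and Mybl1 at 1.22, while Myc, with 2642 and 2716 reads, changed by 0.27 and its partner Max by 0.84.

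**Figure D2:**
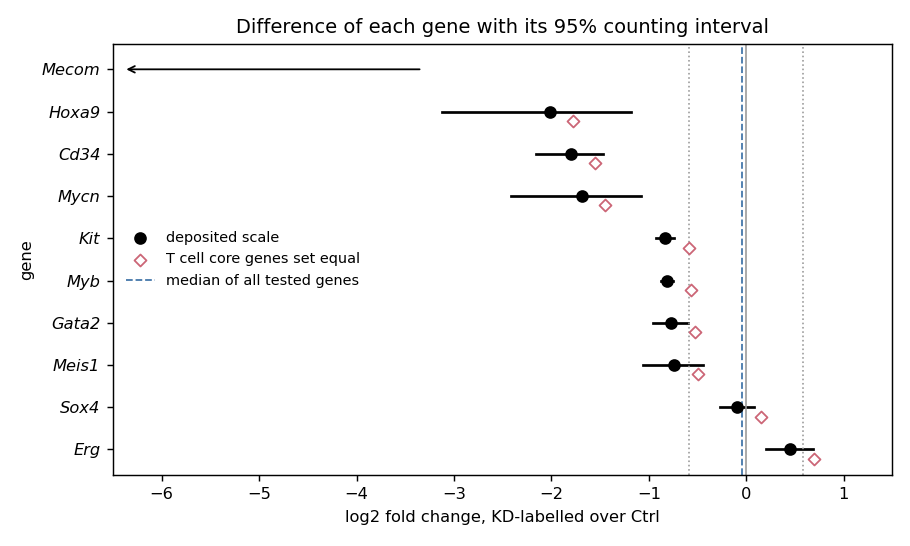
Log2 fold change of each of the 10 genes (black points) with its exact 95% counting interval (lines), and the same change under the T cell core scaling described in the text (open diamonds); dotted lines mark 1.5-fold, the dashed line the median of all tested genes. The arrow for Mecom starts at the upper end of its interval, -3.32, because it had 0 reads in the library labelled KD.

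The 8 genes that fell formed a shallow and a deep set, which was noticed in the values and not tested. Kit, Myb, Gata2 and Meis1 lay between -0.84 and -0.75, that is, 1.68-fold to 1.79-fold lower. Cd34, Hoxa9 and Mycn lay between -2.01 and -1.69, and Mecom was lower still. The counting interval with the lowest end in the shallow set was that of Meis1, at -1.06. The interval with the highest end in the deep set was that of Mycn, at -1.08, so the intervals of both sets narrowly did not overlap. The sets were split on these same values, so this gap is no support for 2 sets. Except for Cd34, the genes of the deep set had under 100 reads in Ctrl, whereas those of the shallow set had from 267 to 6159.

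The share of genes that fell depended on the level, so the 10 genes are also set beside genes of their own range. Of the 4897 tested genes whose level averaged 1000 or more, 5.17% were at least 1.5-fold lower, and both members in this range, Kit and Myb, were among them. Of the 5796 genes with a mean level from 100 to 1000, 11.7% were lower, as were 3 of the 5 members in that range, Cd34, Meis1 and Gata2. Of the 2983 genes from 10 to 100, 37.0% were lower, as were all 3 members there, Hoxa9, Mycn and Mecom. A fall was therefore least common in the range of Kit and Myb and common in the range of Hoxa9, Mycn and Mecom. Measured against all tested genes, the change of Kit was below that of all but 19.7% of them, of Cd34 all but 14.2% and of Hoxa9 all but 12.7%, while Erg lay above 78.6%.

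**Figure D3:**
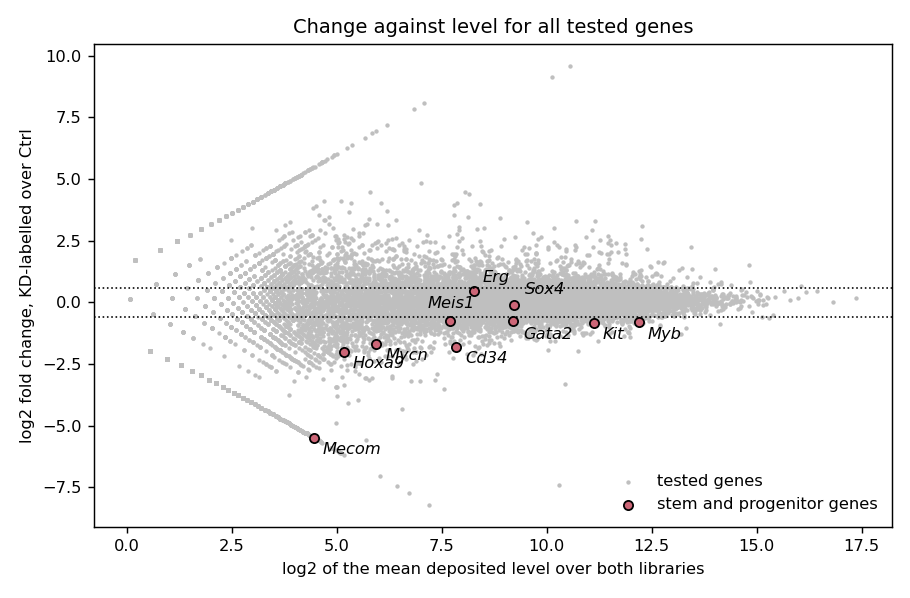
Log2 fold change against the log2 of the mean level for the 16659 tested genes (grey) and the 10 stem and progenitor genes (red); dotted lines mark 1.5-fold. Kit and Myb lie where the cloud is narrow, and Hoxa9, Mycn and Mecom where it is wide; Mecom lies on the line formed by genes with 0 reads in the library labelled KD.

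Divided by exon length, the levels spanned a wide range in each library. In Ctrl the level per kilobase of exon was 667 for Myb, 321 for Kit, 136 for Gata2, 128 for Sox4, 75.1 for Erg, 48.7 for Cd34, 28.5 for Mycn, 24.5 for Meis1, 10.4 for Hoxa9 and 3.50 for Mecom. The exact 95% Poisson intervals of Gata2 and Sox4 overlapped, as did those of Mycn and Meis1, so these neighbours in the order did not differ beyond counting error. In the library labelled KD the level per kilobase was 379 for Myb, 179.7 for Kit, 119.8 for Sox4, 102 for Erg, 79.6 for Gata2, 14.6 for Meis1, 13.9 for Cd34, 8.63 for Mycn, 2.45 for Hoxa9 and 0 for Mecom. There the intervals of Sox4 and Erg overlapped, as did those of Meis1 and Cd34 and those of Cd34 and Mycn. Gata2 thus went from the third to the fifth place and Cd34 from the sixth to the seventh, while Sox4 and Erg moved up, as did Meis1 within counting error of Cd34. For scale, Foxp3 had a level per kilobase of 327 (311 to 344) in Ctrl, within the counting error of the 321 (309.9 to 333) of Kit, and of 338 against 179.7 in the library labelled KD. Transcripts of Kit, which is not a gene of mature T cells in general, were thus as abundant per length as those of Foxp3 in the Ctrl library. Exons of other genes overlap 18.6% of the Foxp3 exon bases on the same strand and 18.7% on the opposite strand.

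Rules other than the fold alone were applied to the same reads. The exact binomial test, two-sided, compares the 2 libraries and not the genotypes. With a Benjamini-Hochberg adjusted p under 0.1 and at least 1.5-fold, it called 8 of the 10 genes lower and 0 higher, against 17.5% lower and 14.8% higher of the 14863 genes with at least 10 reads. When a coefficient of variation of 0.4 between animals was assumed in place of counting error alone, edgeR's exact test called only Mecom lower and 0 higher, against 3.83% lower and 1.57% higher of the same genes. The largest effect of scaling came from setting the 15 T cell core genes found, such as Cd4 and Tcf7, equal between the libraries. Here the median change of these T cell genes is taken as 0, which brought the median over all tested genes from -0.04 to 0.20. With it 25.6% of tested genes were at least 1.5-fold higher and 19.9% lower. Under it 5 of the 10 genes were still at least 1.5-fold lower: Kit, at -0.59, Cd34, at -1.55, Hoxa9, at -1.77, Mycn, at -1.45, and Mecom. Myb, at -0.57, Gata2, at -0.53, and Meis1, at -0.50, were then just short of 1.5-fold, Erg, at 0.69, was past it, and Sox4 changed sign to 0.15. Under library totals, TMM and the median of ratios the same 8 genes were lower.

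Other genes of stem and progenitor cells, a list of 38, were more mixed than the 10. A fall was seen in 13 of them and a rise in 5, and the median was -0.09. Cdk6, a cell cycle kinase of progenitors and the most abundant gene of the list, fell by 0.76 on the log2 scale, from 7134 to 3594 reads. Trib2 changed by -0.21. The genes that rose were Hhex, at 1.10, Spi1, the myeloid and B cell factor PU.1, at 0.71, Lyl1, at 0.62, Igf2bp2, at 0.85, and Nkx2-3, with 0 and 13 reads. Procr, a marker of stem cells and endothelium, had 34 and 0 reads, and the upper end of its interval was -2.89. The Hox genes near Hoxa9 had few reads: Hoxa7, with 35 and 9 reads, fell by 1.63, Hoxa5 had 33 and 5 reads and fell by 2.30, and Hoxa10 was listed at 0 in both libraries. Of 19 paralogs and partners of the 10 genes, 4 were at least 1.5-fold lower, namely Mybl2, Hoxa7, Gata1 and Prdm16, and 3 higher, namely Mybl1, Max and Kitl, with a median of -0.02.

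Among markers of committed lineages, only the erythroid genes mostly fell as the 10 genes did. Over all tested genes 24.2% were at least 1.5-fold lower and 17.2% at least 1.5-fold higher. The falls in the granulocyte list and in the mast cell and basophil list were not far from that share. Falls were less common among tested genes with a mean level from 100 to 1000, 11.7%, and of 1000 or more, 5.17%. All 14 granulocyte genes and most of the mast cell and basophil genes lay in those ranges. Of 16 erythroid genes, 14 were at least 1.5-fold lower and 0 higher, with a median of -1.23 and a summed level of 57538 in Ctrl and 24990 in the library labelled KD. Tal1, a factor of stem cells and of the erythroid lineage, had the largest fall of the list, by 3.30 on the log2 scale from 2586 to 222 reads. Tfrc, the transferrin receptor, had 13678 and 4780 reads and fell by 1.28, Car1 and Car2, which encode carbonic anhydrases, changed by -1.05 and -1.28, and Nfe2 changed by 0.09. Of 14 granulocyte genes, 4 were at least 1.5-fold lower: Mpo, at -1.03, Prtn3, at -1.17, Ms4a3, at -1.08, and Ctsg, a granule protease, at -1.38. In the same list 3 genes rose, namely Ngp, Camp and Chil3. The other 7 were not past 1.5-fold, among them the granule protease gene Elane, at -0.53, the factors Cebpe, at 0.27, and Gfi1, at -0.07, and the abundant S100a9, at 0.46, and Ltf, at 0.47. The summed level of the list was 238504 and 328092, of which S100a9, Ngp and Ltf made up the largest part. Mast cell and basophil genes matter here because mast cells keep Kit, and both cell types use Gata2. Of 12 such genes, 3 were at least 1.5-fold lower, namely Cpa3, Fcer1a and Gata1, and 2 higher, namely Cma1 and Hdc. The mast cell genes Tpsab1, Tpsb2 and Mcpt4 had 0 reads in both libraries, and the summed level of the list was 5688 and 5391. Of 12 megakaryocyte genes, 4 were at least 1.5-fold higher, namely Pf4, Gp9, Treml1 and Ppbp, the last at 2.41. The part of these cells in the values of the 10 genes was not tested.

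**Figure D4:**
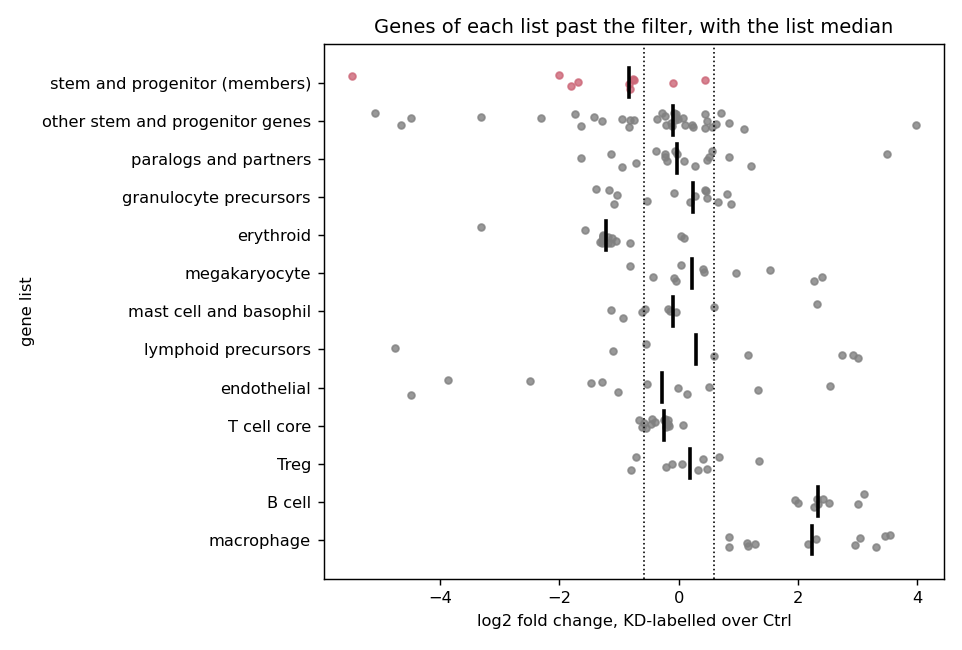
Log2 fold change of each gene of the lists that passed the filter (points, the 10 stem and progenitor genes in red), with the median of the list over all its genes (bars) and dotted lines at 1.5-fold. The medians of the 10 genes, -0.83, and of the erythroid genes, -1.23, lie below the other lists, and those of the B cell and macrophage genes, 2.34 and 2.23, above them; points of genes with 0 reads in 1 library depend on the pseudocount.

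Markers of mature cells moved in the opposite direction or little. The counts here stand beside 24.2% of all tested genes lower and 17.2% higher. Of 9 B cell genes, 9 were at least 1.5-fold higher, with a summed level of 7221 in Ctrl and 38970 in the library labelled KD, and of 12 macrophage genes, 12 were higher, with summed levels of 26218 and 56015. The 15 T cell core genes had a median of -0.25, with 2 lower, Cd4 and Cd3g, and 0 higher, and their summed level was 73662 and 59552. The 10 Treg genes had a median of 0.19, with 2 higher, Lrrc32 and Il2ra, and 2 lower, Ikzf4 and Il10. How far a change in the share of B cell and macrophage RNA bears on the levels of the 10 genes was not tested.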

How the data were processed

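The authors isolated RNA from splenic Treg cells, sequenced mRNA libraries and aligned the reads to mm10 with TopHat; the submitters' processing notes also list bcl2fastq 2.0, STAR, StringTie and DESeq2 without roles, and the counter and annotation are not given in the sources used here. The deposited values are a signal, since 100% of them are whole multiples, within 0.01 reads, of a single step per library, so reads were recovered by division. A count of 3 reads, the floor, is 0.148 reads in each 1000000 of the Ctrl library and 0.164 of the library labelled KD.

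Changes used a pseudocount of 1, which understates those of low genes, a minimum mean level of 1 and the 1.5-fold threshold of the methods. The members and lists were chosen with earlier results of these data known, from general knowledge of each cell type. Gata3, Hoxa5 and Hoxa10 were chosen after their values were seen, as were the further falls named in the stem and progenitor list and in the endothelial list. Besides these and the members, the genes named were the 3 with the highest level and the largest rise and fall of each list. The rise and fall were taken at a mean level of at least 10. The genes of a count of 5 or fewer were also named. Some genes of the lists that this rule names are not reported here. Trac, Trbc1 and Trbc2 were not found by symbol. Positions and exon lengths came from GENCODE release M21 on GRCm38, the build named mm10, and sequences from RefSeq (GRCm38.p6), where all 10 genes matched.

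Alternatives were another pseudocount, filter, scaling or fold threshold, the exact binomial test, edgeR's exact test with an assumed coefficient, and genes above 0 in both libraries. Python 3.11.15 (numpy 2.4.6, scipy 1.17.1, pandas 2.3.3, matplotlib 3.10.9) and R 4.3.3 (edgeR 4.0.16, DESeq2 1.42.0) were used, and the scripts for the counting interval and both count tests were tested on simulated data.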

Additional observations from a re-analysis of the deposited data

How the results depend on the processing

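With 0.1 or 5 as the pseudocount, no filter or a minimum mean of 10, library totals, TMM or the median of ratios, 8 of the 10 genes were at least 1.5-fold lower and 0 higher. Over these settings 14.9% to 26.6% of all genes compared were lower and 13.8% to 17.3% higher. With only genes above 0 in both libraries 7 were lower, because Mecom was not compared, against 13.7% of all such genes. Under the scaling that equalises the T cell core genes, 5 genes were lower, 1 was higher and the median was -0.58, since that scaling shifts every gene by 0.25 on the log2 scale. At a threshold of 2-fold 4 genes were lower, Cd34, Hoxa9, Mycn and Mecom, and 0 higher, against 18.1% and 10.3% of tested genes. The exact test of edgeR, given a coefficient of 0.4, left 1 lower gene, against 3.83% of the genes it took in. The filter moved the background more than the members: with a minimum mean of 10, 14.9% of genes were at least 1.5-fold lower. The value of Mecom depended on the pseudocount and was -3.28 with 5. No gene past 1.5-fold changed sign under the alternatives run; Sox4, which was not past it, did under the T cell core scaling. No paired analysis was possible because there is only 1 library on each side. With under 100 reads in Ctrl, Hoxa9, Mycn and Mecom have wide intervals, and the number of libraries limits all results.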

Other observations

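Genes of lymphoid precursors and of endothelium, cells that share some of the 10 genes, were not uniform. Over all tested genes 24.2% were at least 1.5-fold lower and 17.2% at least 1.5-fold higher. Of 10 lymphoid precursor genes, 4 were at least 1.5-fold higher in the library labelled KD, the recombinase genes Rag1, with 29 and 193 reads, and Rag2, with 12 and 24, and the B lineage genes Vpreb3, at 2.74, and Ebf1, at 3.01. In the same list 2 were lower, Dntt, the template-independent polymerase of early lymphocytes, which fell by 1.10, and Igll1, a part of the surrogate light chain, with 27 and 0 reads. Vpreb1 and Vpreb2 had 0 reads in both libraries. Il7r, the interleukin-7 receptor, changed by 0.58 and Bcl11b, a T lineage factor, by -0.54.

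Of 14 endothelial genes, 6 were at least 1.5-fold lower and 2 higher, beside 24.2% and 17.2% of all tested genes. The median of the 14 genes was -0.27, and their summed level was 3483 in Ctrl and 4137 in the library labelled KD. Pecam1, the most abundant and also present on leukocytes, had levels of 2263 and 3225 and changed by 0.51. Its rise in level was larger than that of the sum. Eng changed by -0.54, and Egfl7 fell by 1.28 from 176 to 61 reads. Cdh5, with 84 and 35 reads, Plvap, with 96 and 29, Tie1, with 18 and 2, and Cldn5, with 14 and 0, fell too. Stab2, a scavenger receptor of sinusoidal lining cells, rose by 2.54 from 31 to 158 reads. Sox17 rose from 5 to 12 reads, and Tek had 22 and 0 reads. Emcn and Sox18 had 0 reads in both libraries. The part of endothelial RNA in the values of Cd34, Erg and Mecom was not tested.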
